A study of Mus musculus with 18 samples.

Results

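The 10 genes described here belong to the NRF2 antioxidant pathway and were listed by name out of the 54838 genes in the count table. They were the regulators *Nfe2l2* and *Keap1*, the glutathione synthesis genes *Gclc* and *Gclm*, the quinone, heme and thiol enzymes *Nqo1*, *Hmox1*, *Srxn1* and *Txnrd1*, and the glutathione transferases *Gsta4* and *Gstm1*. Their RNA was followed in 18 cultures of C57BL/6J mouse cells, 3 in each of 6 conditions. Neurospheres (NSPs, free-floating clusters of neural stem cells taken from the ventricular zone of single brains at embryonic day 14) were grown with EGF at 20 ng/ml and formed the starting condition. The other cultures were NSP cells differentiated towards astrocytes in medium with 10% serum on poly-L-ornithine, for 24 h or 72 h without TNF, for 24 h or 72 h with TNF at 50 ng/ml, or for 1 week without TNF. The comparisons asked how these genes moved during differentiation and how TNF, an inflammatory cytokine, altered them along the way. Serum, the coated surface, a change of base medium and the loss of EGF and of the B27 supplement came together with differentiation. These cannot be told apart, and a 1 week culture with TNF was not among the samples. The labels do not tie libraries to brains, so the p-values measure the spread between these cultures.

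NRF2, the protein made from *Nfe2l2*, is a transcription factor that the adaptor protein KEAP1 normally holds in the cytoplasm and hands over for degradation. When oxidants or electrophiles modify KEAP1, NRF2 accumulates, pairs with a small MAF protein and binds antioxidant response elements near its target genes. These targets make glutathione, regenerate thioredoxin, break down heme and detoxify reactive compounds. Astrocytes are known as a main site of NRF2 activity in the brain and supply neurons with glutathione precursors. Because most of this control acts on the NRF2 protein, RNA levels of *Nfe2l2* and *Keap1* do not measure NRF2 activity.

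The promoters were read first, because the antioxidant response element is the sequence by which NRF2 recognises its targets. RefSeq windows on GRCm38.p6, each running from 250 bases before to 50 bases after an annotated start, were at hand for 7 of the 10 genes. *Hmox1*, *Gclc* and *Gsta4* had no entry. The core TGACNNNGC was searched on both strands and lay in a window of *Nfe2l2*, *Gclm*, *Srxn1* and *Txnrd1*. These 4 genes had 4 windows with a match among the 10 windows of the 7 genes (40%), against 4071 of all 32851 promoter windows (12.4%), and 9.43% of those 4071 also held TGANTCA, the related element bound by AP-1 proteins, against 7.81% of all windows. The 4 windows with a match are printed because they hold the element, and those of *Nqo1* and *Gstm1* because these genes rose most between 72 h and 1 week among the 10, without holding it in the window. Capitals mark the match, and each sequence runs 5′ to 3′ on the strand of its gene.
Nfe2l2, chr2:75704614-75704913, minus strand: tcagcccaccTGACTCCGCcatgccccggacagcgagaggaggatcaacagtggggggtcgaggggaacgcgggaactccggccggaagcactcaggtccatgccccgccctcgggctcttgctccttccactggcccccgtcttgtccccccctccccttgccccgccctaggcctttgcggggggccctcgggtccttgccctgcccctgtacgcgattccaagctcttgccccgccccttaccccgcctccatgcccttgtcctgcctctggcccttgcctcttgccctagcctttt
Gclm, chr3:122245307-122245606, plus strand: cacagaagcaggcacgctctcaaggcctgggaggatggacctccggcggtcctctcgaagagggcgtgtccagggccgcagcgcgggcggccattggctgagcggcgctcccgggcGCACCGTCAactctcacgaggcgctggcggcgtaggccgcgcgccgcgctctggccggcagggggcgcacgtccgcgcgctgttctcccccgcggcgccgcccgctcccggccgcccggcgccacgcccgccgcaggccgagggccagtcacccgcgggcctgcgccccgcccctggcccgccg
Srxn1, chr2:152105274-152105573, plus strand: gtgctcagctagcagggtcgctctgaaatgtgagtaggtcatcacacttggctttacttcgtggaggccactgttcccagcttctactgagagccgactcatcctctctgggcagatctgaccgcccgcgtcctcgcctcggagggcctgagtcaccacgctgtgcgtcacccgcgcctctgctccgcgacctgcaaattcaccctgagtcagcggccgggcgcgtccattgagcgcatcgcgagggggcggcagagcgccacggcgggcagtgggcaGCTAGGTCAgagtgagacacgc
Txnrd1, chr10:82858956-82859255, plus strand: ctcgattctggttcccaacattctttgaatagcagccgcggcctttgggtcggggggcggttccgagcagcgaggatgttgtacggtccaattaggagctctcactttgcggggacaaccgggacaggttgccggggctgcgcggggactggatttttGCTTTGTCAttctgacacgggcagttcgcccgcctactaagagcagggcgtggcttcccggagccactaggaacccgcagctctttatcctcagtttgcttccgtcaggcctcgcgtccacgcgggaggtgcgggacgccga
Nqo1, chr8:107403156-107403455, minus strand: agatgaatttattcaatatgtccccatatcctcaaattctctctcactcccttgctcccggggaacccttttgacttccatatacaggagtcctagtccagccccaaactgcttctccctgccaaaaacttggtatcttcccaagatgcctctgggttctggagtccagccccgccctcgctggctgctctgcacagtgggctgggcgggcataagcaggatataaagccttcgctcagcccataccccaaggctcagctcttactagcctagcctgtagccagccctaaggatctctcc
Gstm1, chr3:108017769-108018068, minus strand: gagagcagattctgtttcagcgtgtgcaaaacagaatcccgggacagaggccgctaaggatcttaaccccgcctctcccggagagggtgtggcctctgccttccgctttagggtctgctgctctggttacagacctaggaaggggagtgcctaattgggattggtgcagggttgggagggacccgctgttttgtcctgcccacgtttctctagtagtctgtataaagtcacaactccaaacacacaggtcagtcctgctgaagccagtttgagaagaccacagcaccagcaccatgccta
The *Nfe2l2* match read TGACTCCGC on the gene's own strand and began at position -240 from the start. The other 3 lay on the opposite strand, where they read TGACGGTGC in *Gclm* (position -134), TGACCTAGC in *Srxn1* (position 28, inside the transcript) and TGACAAAGC in *Txnrd1* (position -92). The remaining windows of *Txnrd1* and *Gstm1* and the window of *Keap1* held no match. A match here is a description of letters in a short window, and the RNA counts do not measure the binding of NRF2. The authors also inferred NRF2 footprints from chromatin accessibility, and those data were not used here.

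Library totals ran from 12509693 to 22549627 counts, and all 10 genes passed the filter on low counts that left 20067 genes for testing. Levels are CPM, counts scaled to library size with TMM, and log2 fold changes with their SE and adjusted p come from edgeR's quasi-likelihood test over all 18 libraries with Benjamini-Hochberg adjustment over the 20067 genes. A gene is called higher or lower where the adjusted p was under 0.05. The labelled identities were checked against marker genes. All 9 astrocyte markers had over 3 counts in every library, but they did not move together. From NSPs through 24 h and 72 h to 1 week, *Gfap* averaged 27.1, 899, 2430 and 63.4 CPM, while *Slc1a3* averaged 3050, 2730, 2200 and 2070 CPM and *Aldoc* 1180, 891, 581 and 263 CPM. *Slc1a2* and *S100b* were also lower at 24 h and 72 h than in NSPs by their means. In the same order *Aqp4* averaged 159, 421, 871 and 201 CPM, and *Slc14a1* 0.983, 2.17, 14.3 and 0.653 CPM. *Gja1* averaged 234, 197, 539 and 119 CPM, and *Aldh1l1* 12.9, 23.4, 8.14 and 3.58 CPM. The 9 markers summed to 5130 to 5360 CPM in NSPs and to 5710 to 8160 CPM after 72 h. Their sum was 2680 to 3250 CPM at 1 week, the condition in which 7 of the 10 genes had their highest mean, and the part of this in their levels was not tested. The proliferation marker *Mki67* fell from 474 CPM in NSPs to 41.1 at 24 h and 1.39 at 72 h. Microglia markers summed to at most 3.95 CPM in any library, with *C1qa* at 0 throughout. Oligodendrocyte lineage markers summed to 993 to 1220 CPM in NSPs and 71.2 to 412 CPM in every other library. In these bulk cultures, fewer cells of a type and less RNA per cell cannot be told apart. The TNF-responsive gene *Nfkbia* averaged 149 CPM with TNF and 27.5 without at 24 h, and 154 with and 22.0 without at 72 h. Replicate 1 of both TNF conditions lay farthest from its own replicates, so results that rest on these libraries are also given without them.

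Between NSPs and 1 week of differentiation, 7 of the 10 genes were higher and 1 was lower, where 58.6% of all tested genes were called in that comparison, 29.6% higher and 29.1% lower. *Hmox1*, *Nqo1*, *Gstm1* and *Gclc* rose most, by 8.88-fold, 5.14-fold, 3.62-fold and 3.46-fold. *Srxn1*, *Gclm* and *Nfe2l2* rose by 2.72-fold, 1.85-fold and 1.79-fold, and *Txnrd1* was lower than in NSPs. *Keap1* and *Gsta4* were not called. The median log2 fold change was 1.16 over the 10 genes and 0.06 over all genes tested.

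**Figure D1:**
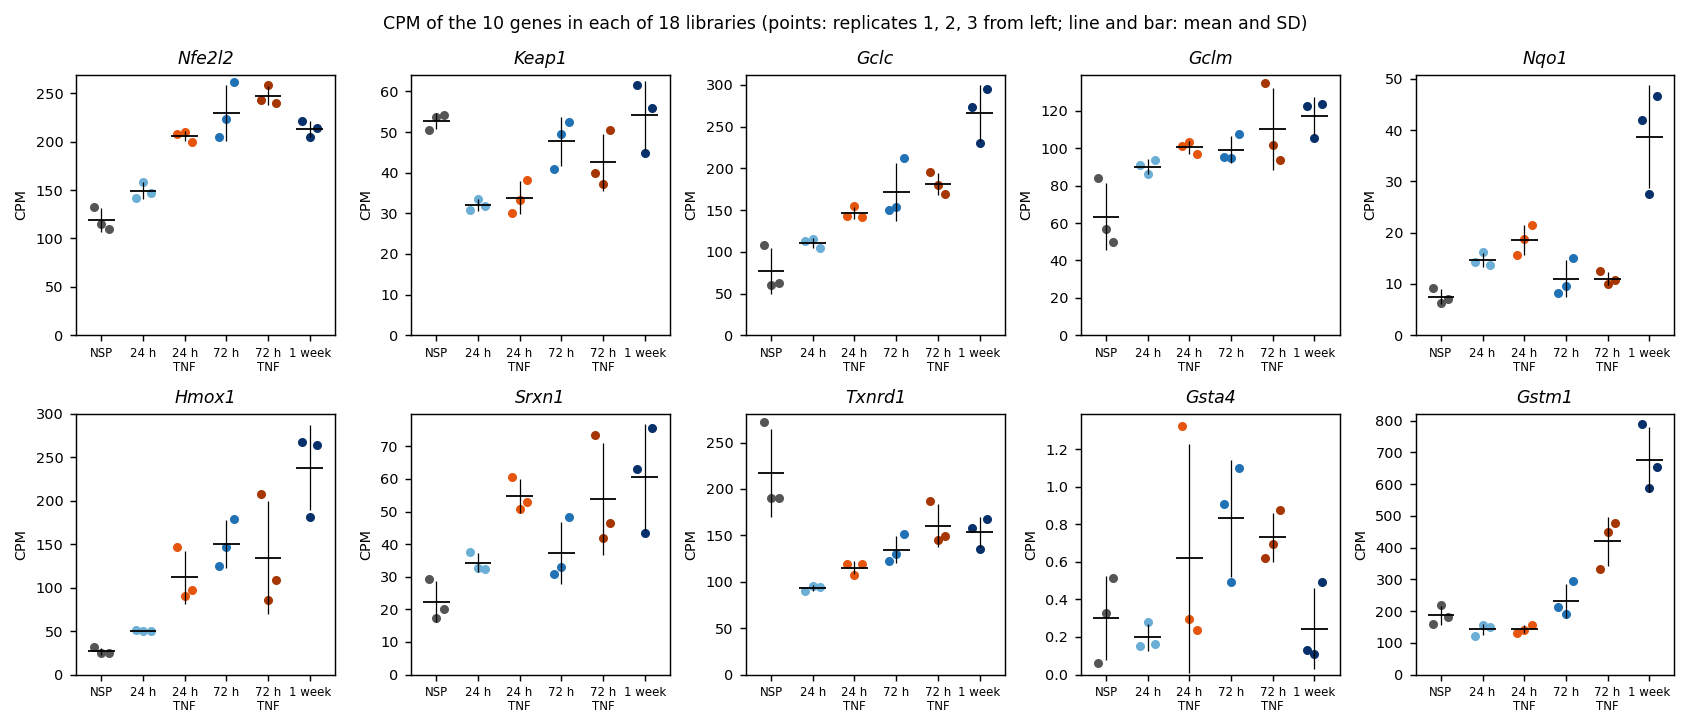
Level of each of the 10 genes in every library, in CPM on linear axes that differ between panels, with the 6 conditions along the horizontal axis. Points are replicates 1, 2 and 3 from left to right, and the line with bars is the mean and SD over 3 cultures. *Hmox1*, *Gclc* and *Gstm1* have all 1 week points above all 72 h points, while *Txnrd1* is highest in NSPs.

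The regulators moved differently from each other. *Nfe2l2* (ENSMUSG00000015839, chr2:75675513-75704641 on GRCm38) measured 133, 115 and 110 CPM in the 3 NSP libraries, 142, 159 and 147 at 24 h, 205, 224 and 262 at 72 h, and 221, 205 and 214 at 1 week. The 24 h cultures lay above all NSPs and the 72 h cultures above all 24 h ones, while 72 h and 1 week overlapped. The log2 fold change was 0.33 (SE 0.11, adjusted p = 0.0182) from NSPs to 24 h and 0.62 (SE 0.11, adjusted p = 0.000398) from 24 h to 72 h, with -0.11 (adjusted p = 0.665) from 72 h to 1 week. The first step lost its call without NSP replicate 2 or 3 (largest adjusted p 0.0887) and without a filter on low counts (0.29, adjusted p = 0.156), and the second kept it in all 6 fits that left out 1 library. *Keap1* (ENSMUSG00000003308, chr9:21229730-21239361), the gene of the NRF2 repressor, measured 50.5, 53.8 and 54.1 CPM in NSPs, 30.8, 33.6 and 31.9 at 24 h, 40.9, 49.6 and 52.6 at 72 h, and 61.5, 44.9 and 55.9 at 1 week. It thus fell at 24 h, with every culture under every NSP culture, and overlapped NSPs again at 72 h. The fall was -0.72 on the log2 scale (SE 0.15, adjusted p = 0.000465) and the rise that followed 0.57 (adjusted p = 0.0068), and both held when any 1 library was left out. *Keap1* shares 510 exon bases (10.9% of its exons) with the antisense gene *Gm16754*, which had 734 counts over all libraries against 13159 for *Keap1*.

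The glutathione synthesis genes encode the catalytic (*Gclc*) and the modifier (*Gclm*) subunit of glutamate-cysteine ligase, the rate-limiting enzyme of glutathione synthesis. *Gclc* (ENSMUSG00000032350, chr9:77754535-77794485) measured 108, 60.1 and 62.6 CPM in NSPs, 113, 115 and 104 at 24 h, 150, 153 and 212 at 72 h, and 274, 230 and 296 at 1 week. It was called higher at each step, with log2 fold changes of 0.52 (SE 0.19, adjusted p = 0.024), 0.64 (SE 0.18, adjusted p = 0.0157) and 0.63 (SE 0.18, adjusted p = 0.045). NSP replicate 1 lay inside the 24 h range and 72 h replicate 3 stood above its replicates, and the calls leaned on single libraries. The first step held in 3 of 6 fits that left out 1 library (0.85 without NSP replicate 1, adjusted p = 0.0002), the second was lost without 72 h replicate 3 (0.46, adjusted p = 0.108), and the last held in 2 of 6. Over the whole course, from NSPs to 1 week, the change of 1.79 (SE 0.19, adjusted p = 2.04e-07) held in all 6.

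*Gclm* (ENSMUSG00000028124, chr3:122245557-122270732), one of the genes with the element in its window, measured 84.0, 56.7 and 49.7 CPM in NSPs, 90.8, 86.0 and 93.7 at 24 h, 95.4, 94.7 and 108 at 72 h, and 123, 105 and 124 at 1 week. Its 24 h cultures were all above its NSP cultures, and later steps were small. The log2 fold change was 0.51 (SE 0.16, adjusted p = 0.0145) from NSPs to 24 h, lost without NSP replicate 2 or 3, then 0.14 (adjusted p = 0.593) and 0.24 (adjusted p = 0.474). From NSPs to 1 week it was 0.88 (adjusted p = 0.000148), against 1.79 for *Gclc*. Of its 75-base transcript windows, 2.84% also occur in other genes, mostly pseudogenes, and 296 of its exon bases overlap *Gm17494* on the other strand, which had 1612 counts in all.

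Among the quinone, heme and thiol enzymes, *Hmox1* and *Nqo1* were both called higher from NSPs to 24 h. *Hmox1* (ENSMUSG00000005413, chr8:75093621-75100589), the inducible heme oxygenase that opens the heme ring, measured 31.2, 25.0 and 24.2 CPM in NSPs, 50.7, 49.7 and 50.1 at 24 h, 125, 147 and 179 at 72 h, and 268, 182 and 265 at 1 week. The 4 untreated conditions did not overlap. The log2 fold change was 0.90 (SE 0.26, adjusted p = 0.008) from NSPs to 24 h, 1.58 (SE 0.26, adjusted p = 0.000214) from 24 h to 72 h, and 0.66 (SE 0.26, adjusted p = 0.144) from 72 h to 1 week. The last step was called when only the groups compared were fitted (adjusted p = 0.035) and without a filter on low counts (adjusted p = 0.00037). The first pair of steps held in every fit that left out 1 library. *Nqo1* (ENSMUSG00000003849, chr8:107388225-107403206), a quinone reductase and the classical readout of NRF2 activity, measured 9.27, 6.32 and 7.05 CPM in NSPs, 14.4, 16.2 and 13.6 at 24 h, 8.25, 9.63 and 15.1 at 72 h, and 42.0, 27.6 and 46.7 at 1 week. It rose at 24 h, showed no call at 72 h, and was highest at 1 week with no overlap with any other condition. The steps were 0.97 (SE 0.23, adjusted p = 0.00199), -0.42 (SE 0.23, adjusted p = 0.204) and 1.81 (SE 0.23, adjusted p = 7.95e-05). Without 72 h replicate 3, the middle step was -0.72 with an adjusted p of 0.0375. From NSPs to 72 h the change of *Nqo1* was 0.55 (adjusted p = 0.0523), and 0.25 (adjusted p = 0.377) without 72 h replicate 3. It was called with at least 10 counts in every library (adjusted p = 0.0159) and without a filter on low counts (adjusted p = 0.037). Leaving out NSP replicate 1, 72 h replicate 1 or 72 h replicate 2 also gave a call (adjusted p = 0.0256, 0.0203 and 0.0499).

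*Srxn1* (ENSMUSG00000032802, chr2:152105516-152111376), the sulfiredoxin that repairs overoxidised peroxiredoxins, measured 29.5, 17.4 and 20.2 CPM in NSPs, 37.7, 32.7 and 32.5 at 24 h, 30.9, 33.0 and 48.2 at 72 h, and 63.0, 43.4 and 75.6 at 1 week. Each pair of neighbouring conditions from 24 h onwards overlapped. The step from NSPs to 24 h was 0.62 (SE 0.24, adjusted p = 0.0381) but held in 2 of 6 fits that left out 1 library and missed the threshold in DESeq2 (adjusted p = 0.0525), and the later steps were 0.13 (adjusted p = 0.75) and 0.70 (adjusted p = 0.0906). The last step was called without 1 week replicate 2 (0.89, adjusted p = 0.0453), without a filter on low counts (adjusted p = 0.000679) and with the replicate number as a block and the third 72 h library unpaired (adjusted p = 0.0373). From NSPs to 1 week *Srxn1* rose by 1.44 (adjusted p = 5.25e-05), a call kept in all 6. *Txnrd1* (ENSMUSG00000020250, chr10:82833951-82897712), the cytosolic thioredoxin reductase, went the other way first. It measured 272, 190 and 190 CPM in NSPs, 89.6, 95.9 and 94.5 at 24 h, 123, 130 and 151 at 72 h, and 158, 136 and 167 at 1 week. The NSP cultures lay above all others, and the 24 h cultures lay under all others. The fall at 24 h was -1.22 on the log2 scale (SE 0.15, adjusted p = 2.02e-06), the partial rise to 72 h was 0.53 (adjusted p = 0.0116, lost without 72 h replicate 3 with an adjusted p of 0.0647), and *Txnrd1* was still lower than in NSPs at 1 week (-0.50, adjusted p = 0.0062).

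The glutathione transferases sat at opposite ends of the scale. *Gstm1* (ENSMUSG00000058135, chr3:108012255-108017973), which joins glutathione to electrophiles, measured 160, 220 and 181 CPM in NSPs, 122, 155 and 150 at 24 h, 212, 192 and 294 at 72 h, and 789, 587 and 655 at 1 week. All 1 week cultures were above all others without TNF. Its log2 fold change was -0.39 (adjusted p = 0.0719) from NSPs to 24 h, 0.71 (SE 0.18, adjusted p = 0.00666) from 24 h to 72 h, and 1.54 (SE 0.18, adjusted p = 3.73e-05) from 72 h to 1 week. The fall to 24 h was called without a filter on low counts (-0.435, adjusted p = 0.0165) and without NSP replicate 1 (-0.497, adjusted p = 0.0388). The rise to 72 h was lost without 72 h replicate 3 (0.50, adjusted p = 0.0594), and the rise to 1 week held in all 6 fits. Since 11.7% of its 75-base windows also occur in *Gstm3*, *Gstm2-ps1* or *Gm8834*, part of its counts may be shared with these. *Gsta4* (ENSMUSG00000032348, chr9:78182774-78209349), which clears the lipid peroxidation product 4-hydroxynonenal, had 143 counts in all 18 libraries together, between 1 and 21 per library. It measured 0.0635, 0.330 and 0.512 CPM in NSPs, 0.151, 0.280 and 0.163 at 24 h, 0.908, 0.491 and 1.10 at 72 h, and 0.133, 0.110 and 0.493 at 1 week. The 72 h cultures were above those at 24 h, at 8 to 20 counts against 2 to 5, with a log2 fold change of 1.98 (SE 0.71, adjusted p = 0.0487). This call held in 1 of 6 fits that left out 1 library and was lost in DESeq2 (adjusted p = 0.0578). No other comparison of *Gsta4* was called over all libraries with the filter by condition, but without a filter on low counts it was called from NSPs to 72 h (1.38, adjusted p = 0.0296) and from 72 h to 1 week (-1.84, adjusted p = 0.0209). The change from NSPs to 72 h was also called without NSP replicate 3 (adjusted p = 0.0413) or 72 h replicate 2 (adjusted p = 0.0488).

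Scaled by exon length, the levels at 1 week were 460 RPKM (CPM divided by exon length in kilobases) for *Gstm1*, 136 for *Hmox1*, 70.8 for *Gclc*, 56.2 for *Nfe2l2*, 24.9 for *Nqo1*, 21.7 for *Txnrd1*, 21.5 for *Srxn1*, 18.6 for *Gclm*, 11.5 for *Keap1* and 0.194 for *Gsta4*. In NSPs *Gstm1* was also first at 127 RPKM, but *Nfe2l2* (31.4) and *Txnrd1* (30.7) came next, and *Hmox1* stood at 15.3 RPKM and *Nqo1* at 4.86.

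Read step by step, the 10 genes did not move as one block. From NSPs to 24 h, 6 were called higher (*Nfe2l2*, *Gclc*, *Gclm*, *Nqo1*, *Hmox1* and *Srxn1*) and 2 lower (*Keap1* and *Txnrd1*), where 52.7% of all tested genes were called, 27.2% higher and 25.5% lower. From 24 h to 72 h, 7 were higher and none lower, where 24.8% of all genes were called, 12.2% higher and 12.6% lower. From 72 h to 1 week, 3 were higher (*Gclc*, *Nqo1* and *Gstm1*) and none lower, where 6.63% of all genes were called, 2.68% higher and 3.96% lower. Taken from NSPs straight to 72 h, 5 were higher and 1 was lower, where 55.3% of all genes were called, 28.1% higher and 27.2% lower. These comparisons share libraries with each other, so their counts are not independent. The median log2 fold change of the 10 genes was 0.42, 0.60 and 0.44 in the 3 successive steps, and that of all genes 0.06, -0.01 and 0.00.

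**Figure D2:**
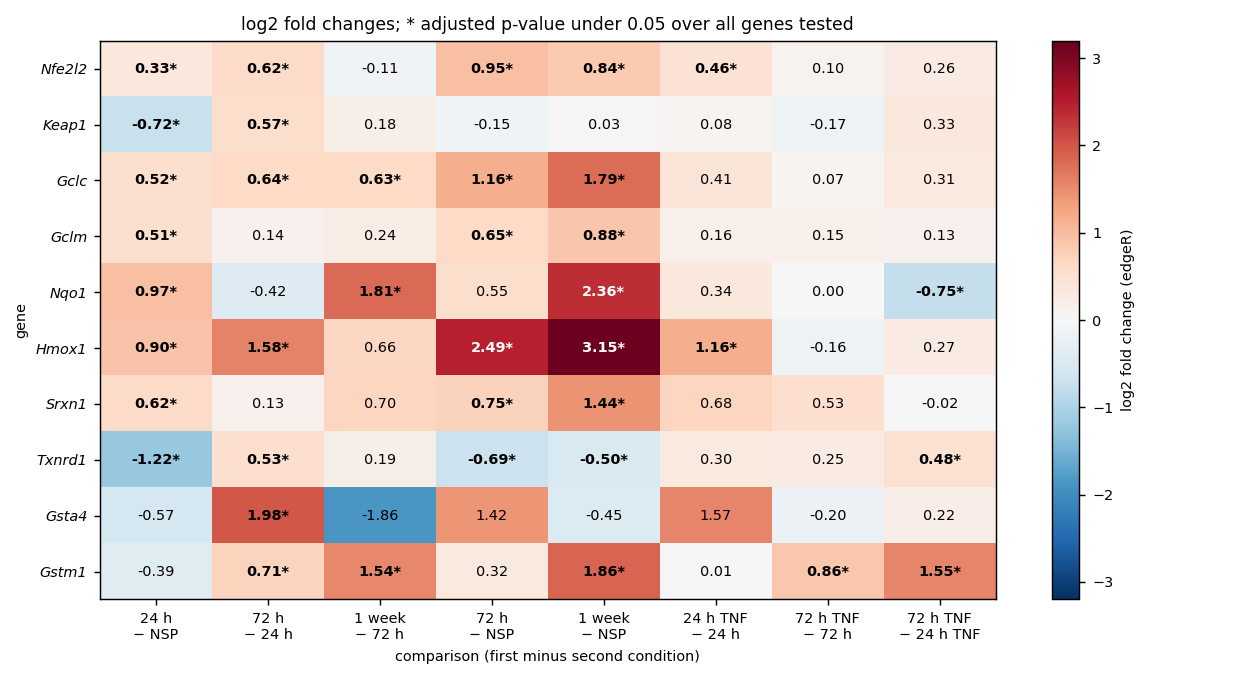
Log2 fold changes of the 10 genes (rows) in 8 comparisons (columns), with an asterisk where the adjusted p of edgeR's test was under 0.05. *Hmox1* reaches 3.15 between NSPs and 1 week, and *Txnrd1* is the lowest value among the called ones, at -1.22 from NSPs to 24 h.

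Single cultures moved many of the 10 genes in the same direction. Replicate 3 at 72 h was the highest of its group for 10 of 10 genes, while it was highest for 38.8% of all tested genes. Replicate 2 at 1 week was the lowest for 10 of 10, against 44.1% of all genes. NSP replicate 1 and 24 h replicate 2 were each the highest for 7 of 10, against 47.8% and 36.1%, and 72 h replicate 1 was the lowest for 7 of 10, against 45.0%. The steps that start or end at 72 h therefore carry this culture, and without it 4 of the 7 calls from 24 h to 72 h were lost, those of *Gclc*, *Txnrd1*, *Gstm1* and *Gsta4*, while *Nqo1* was called lower (-0.72, adjusted p = 0.0375). NSP replicate 1 also differed in *Slc7a11*, the cystine transporter gene, with 68.1 CPM against 327 and 326 in the other NSPs, and in its summed stem cell markers, with 3870 CPM against 2970 and 3030. Their part in these differences was not tested.

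TNF for 24 h raised *Hmox1* and *Nfe2l2* over the untreated 24 h cultures, and no gene of the 10 was called lower. These 2 of 10 compare with 3.5% of all tested genes called, 2.18% higher and 1.32% lower. *Hmox1* measured 147, 90.2 and 97.7 CPM with TNF against 50.7, 49.7 and 50.1 without. *Nfe2l2* measured 208, 210 and 200 CPM with TNF against 142, 159 and 147 without. For both genes every treated culture was above every untreated one. The log2 fold change was 1.16 (SE 0.26, adjusted p = 0.0158) for *Hmox1* and 0.46 (SE 0.11, adjusted p = 0.0218) for *Nfe2l2*, and each call held in 2 of 6 fits that left out 1 library (adjusted p up to 0.0949 and 0.124). Neither call held without 24 h replicate 1, 24 h replicate 3 or replicate 1 of the 24 h TNF cultures. Without replicate 1 of both TNF conditions, chosen after seeing the data, *Hmox1* stayed called at 0.90 (adjusted p = 0.00585) and *Nfe2l2* was at 0.45 (adjusted p = 0.0515).

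The remaining genes had no call at 24 h of TNF, although some groups did not overlap. *Srxn1* measured 60.7, 50.7 and 53.0 CPM with TNF, above all untreated cultures, with a log2 fold change of 0.68 (SE 0.24, adjusted p = 0.156). It was called higher when only the groups compared were fitted (adjusted p = 0.0181), which gave 3 calls among the 10 genes, and without a filter on low counts (adjusted p = 0.00296), a fit in which *Nfe2l2* lost its call (adjusted p = 0.063). *Gclc* measured 143, 155 and 142 CPM with TNF, again above all untreated cultures, at 0.41 (SE 0.18, adjusted p = 0.328). *Txnrd1* measured 119, 107 and 120 CPM with TNF, at 0.30 (SE 0.15, adjusted p = 0.365), with the same separation from its untreated cultures, and so did *Gclm* at 101, 104 and 96.7 CPM and 0.16 (adjusted p = 0.765). *Nqo1* (15.6, 18.8 and 21.4 CPM), *Keap1* (30.0, 33.3 and 38.1 CPM) and *Gstm1* (132, 141 and 158 CPM) overlapped their untreated cultures, with 0.34, 0.08 and 0.01 on the log2 scale. *Gsta4* measured 1.32, 0.298 and 0.236 CPM, and its fitted change of 1.57 was 0.33 without replicate 1. At an unadjusted p under 0.05 in edgeR's test, 5 of the 10 genes passed, and so did 2761 of all 20067 genes tested. The median log2 fold change was 0.37 over the 10 genes and -0.01 over all genes.

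After 72 h of TNF *Gstm1* alone was called, and it was higher, where 9.56% of all tested genes were called, 4.35% higher and 5.21% lower. *Gstm1* measured 333, 451 and 478 CPM with TNF against 212, 192 and 294 without, and the groups did not overlap. The log2 fold change was 0.86 (SE 0.18, adjusted p = 0.00384) and stayed called in all 6 fits that left out 1 library. In the same cultures the 9 astrocyte markers summed to 3490 to 4890 CPM with TNF and 5710 to 8160 without, with no overlap. Of the 9, *Gfap* (489 CPM with TNF and 2430 without), *Aldoc* (195 and 581), *S100b* (24.4 and 76.0) and *Slc14a1* (2.21 and 14.3) were called lower and none higher, and their part in the results at 72 h was not tested. *Hmox1* measured 208, 86.1 and 109 CPM with TNF and 125, 147 and 179 without, so 1 treated culture lay above and the others below all untreated ones, at -0.16 (SE 0.26, adjusted p = 0.732). Its change was -0.62 without replicate 1 of the 72 h TNF cultures (adjusted p = 0.0897, not called) and -0.64 without replicate 1 of both TNF conditions (adjusted p = 0.0336). *Srxn1* measured 73.5, 41.8 and 46.4 CPM with TNF, at 0.53 (SE 0.24, adjusted p = 0.173), and was at 0.24 (adjusted p = 0.599) without replicate 1 of the 72 h TNF cultures. Without a filter on low counts *Srxn1* was called (0.54, adjusted p = 0.0208). *Nfe2l2* measured 243, 258 and 240 CPM with TNF, inside the wider range of the untreated cultures, at 0.10 (SE 0.11, adjusted p = 0.589). The other genes ranged from -0.20 (*Gsta4*) to 0.25 (*Txnrd1*) on the log2 scale, and all of them overlapped their untreated cultures.

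**Figure D3:**
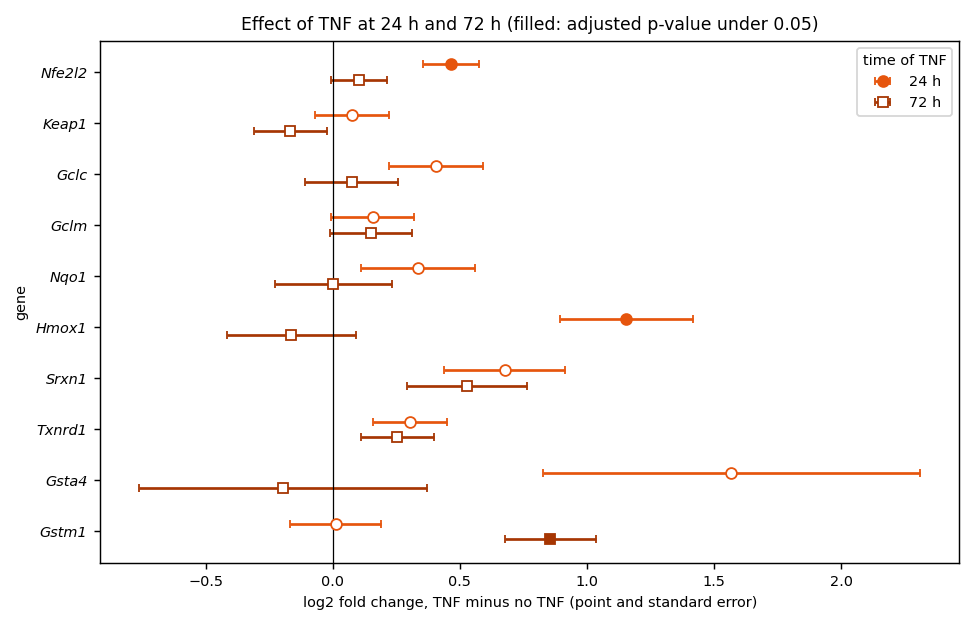
Log2 fold change of each of the 10 genes with TNF against no TNF at 24 h (circles) and at 72 h (squares), with bars of 1 SE, and filled symbols where the adjusted p was under 0.05. *Hmox1* is at 1.16 at 24 h and -0.16 at 72 h, and *Gstm1* at 0.01 and 0.86.

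Whether the TNF effect differed between 72 h and 24 h was tested as an interaction. In the reported edgeR fit none of the 10 genes was called, where 0.458% of all genes were, 0.135% upward and 0.324% downward. Before adjustment, 2018 of all 20067 genes tested were under 0.05. The 3 of the 10 genes under 0.05 before adjustment were *Hmox1* (-1.32 on the log2 scale, SE 0.36, adjusted p = 0.143), *Gstm1* (0.84, SE 0.25, adjusted p = 0.187) and *Nfe2l2* (-0.36, adjusted p = 0.447). At its few counts *Gsta4* was at -1.76 (SE 0.94, adjusted p = 0.542). DESeq2 called 1 of the 10, *Hmox1* (-1.32, adjusted p = 0.0393). In edgeR without a filter on low counts, *Hmox1* (-1.30, adjusted p = 1.26e-06) and *Gstm1* (0.86, adjusted p = 0.00662) were called. Leaving out replicate 1 of the 72 h TNF cultures gave a call in edgeR as well, since the difference for *Hmox1* was -1.77 (adjusted p = 0.00469) without it and -1.54 (adjusted p = 0.00565) without replicate 1 of both TNF conditions. Replicate 1 of both TNF conditions was also high in *Gfap*, with 1870 CPM against 463 and 596 at 24 h and 1020 against 217 and 229 at 72 h, and in *Slc7a11*, with 245 CPM against 80.3 and 84.5 at 24 h and 234 against 58.1 and 46.2 at 72 h. Summed oligodendrocyte lineage markers were lowest in the same libraries, with 126 CPM against 280 and 351 at 24 h and 72.4 against 126 and 162 at 72 h. The part of these differences in the *Hmox1* values was not tested.

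Within the TNF-treated cultures, from 24 h to 72 h, *Gstm1* and *Txnrd1* were called higher and *Nqo1* lower, where 13.3% of all tested genes were called, 5.38% higher and 7.93% lower. *Gstm1* rose by 1.55 on the log2 scale (SE 0.18, adjusted p = 2.51e-05), and this held in all 6 fits. *Txnrd1* measured 187, 145 and 150 CPM at 72 h of TNF, a rise of 0.48 (adjusted p = 0.034). *Nqo1* measured 12.5, 9.92 and 10.7 CPM at 72 h of TNF, all under the 24 h TNF cultures, a fall of -0.75 (adjusted p = 0.0337). Both of these calls held in 2 of 6 fits. Without replicate 1 of both TNF conditions, *Txnrd1* was at 0.39 (adjusted p = 0.128) and *Nqo1* at -0.95 (adjusted p = 0.0205).

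Over all 6 conditions, *Hmox1*, *Gclc*, *Gclm*, *Nqo1*, *Srxn1*, *Gstm1* and *Keap1* had their highest mean at 1 week, *Nfe2l2* at 72 h with TNF (247 ± 9.81 CPM, SD, n = 3), *Gsta4* at 72 h and *Txnrd1* in NSPs (218 ± 47.1 CPM). For *Hmox1* the mean was 238 ± 48.9 CPM at 1 week, then 150 ± 27.4 at 72 h, 134 ± 65.0 at 72 h with TNF, 112 ± 31.1 at 24 h with TNF, 50.2 ± 0.506 at 24 h and 26.8 ± 3.82 in NSPs. Of the neighbours in that order, 72 h overlapped 72 h with TNF and the latter overlapped 24 h with TNF, while the other neighbours did not overlap. Replicate 1 at 72 h with TNF also lay above the lowest 1 week culture. For *Gstm1* it was 677 ± 103 CPM at 1 week, 421 ± 77.0 at 72 h with TNF, 232 ± 53.9 at 72 h, 187 ± 30.5 in NSPs, 144 ± 12.8 at 24 h with TNF and 143 ± 17.7 at 24 h. Here 1 week stood apart from 72 h with TNF and the latter from 72 h, and among the lower neighbours only NSPs and 24 h with TNF did not overlap. For *Nqo1* it was 38.7 ± 9.96 CPM at 1 week, 18.6 ± 2.90 at 24 h with TNF and 14.7 ± 1.34 at 24 h, the last 2 overlapping, with the other 3 conditions below them.

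The wider pathway was described with 103 other genes, of which 91 passed the filter: NRF2 partners and regulators, glutathione supply and use, other transferases, the thioredoxin and peroxiredoxin system, NADPH supply, heme breakdown and iron, detoxification and efflux, and the superoxide and peroxide enzymes. From NSPs to 24 h, 15 of the 91 were higher and 31 lower, with a median log2 fold change of -0.22, while 6 of the 10 genes above were higher. Of all tested genes, 27.2% were higher and 25.5% lower in this comparison. By list, 1 was higher and 5 lower of 15 in glutathione supply, 2 and 6 of 12 in other transferases, 1 and 6 of 14 in thioredoxin and peroxiredoxin, and 1 and 4 of 8 in NADPH supply. In the remaining lists, 4 were higher and 2 lower of 12 NRF2 partners, 3 and 2 of 8 in heme and iron, 3 and 5 of 18 in detoxification and efflux, and 0 and 1 of 4 superoxide and peroxide enzymes. *Slc40a1*, the iron exporter ferroportin, was higher by 3.24 (adjusted p = 2.54e-08) and *Mafk*, a small MAF partner of NRF2, by 1.68 (adjusted p = 2.6e-06). *Slc7a11* was lower by -2.07 (SE 0.62, adjusted p = 0.00937) and *Txn1*, the cytosolic thioredoxin, by -1.95 (adjusted p = 1.1e-07). Taken from NSPs straight to 72 h, 28 of the 91 were higher and 39 lower, where 28.1% and 27.2% of all genes were. From NSPs to 1 week 26 of the 91 were higher and 33 lower, where 29.6% and 29.1% of all genes were. The median log2 fold change of the 91 was -0.17 and -0.07 in these comparisons. From 24 h to 72 h 20 of the 91 were higher and 8 lower, where 12.2% and 12.6% of all genes were. From 72 h to 1 week 8 were higher and 2 lower, where 2.68% and 3.96% of all genes were, the latter 2 being *Gpx1* (-0.98) and *Ptgr1* (-0.66), named after their values were seen. The transferases called higher at 1 week were *Gstm2* (1.64), *Gstm6* (2.00) and *Gstm7* (1.91), singled out after seeing their values, which are paralogs of *Gstm1* and may share reads with each other.

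With TNF at 24 h, 8 of these 91 genes were higher and none lower, and at 72 h 6 were higher and 5 lower. Over all tested genes 2.18% were higher and 1.32% lower at 24 h, and 4.35% and 5.21% at 72 h, so the counts at 72 h lay near the background. With 1 library left out, between 4 and 8 of the 91 were higher at 24 h, and between 2 and 4 were higher and 2 and 14 lower at 72 h, the 14 without 72 h replicate 1. The 2 largest changes at 24 h were those of *Ugt1a6a*, a glucuronosyltransferase gene that shares exons with its neighbours and is therefore uncertain, at 1.76 (SE 0.35, adjusted p = 0.00661), and of *Maff*, another small MAF gene, at 1.51 (SE 0.30, adjusted p = 0.00675). *Maff* measured 9.57, 19.5 and 20.5 CPM with TNF and 5.21, 6.04 and 6.11 without. In the heme and iron list, which adjoins *Hmox1*, 2 of 8 genes were higher at 24 h, *Slc40a1* (0.85, adjusted p = 0.0278) and the ferritin heavy chain gene *Fth1* (1.02, adjusted p = 0.0417), both named after their values were seen. Without replicate 1 of the 24 h TNF cultures *Slc40a1* was at 0.60 (adjusted p = 0.179) and *Fth1* at 0.85 (adjusted p = 0.162), and the *Fth1* call was lost in all 6 fits that left out 1 library of the comparison. Without replicate 1 of both TNF conditions *Fth1* was called (0.87, adjusted p = 0.00255). At 72 h, *Ugt1a6a* was higher by 1.85 (adjusted p = 0.00112) and *Abcc1*, an exporter of glutathione conjugates, by 1.02 (adjusted p = 0.0117), the latter with 138, 56.3 and 62.5 CPM with TNF, against 41.7 to 43.6 without. *Abcc1* was at 0.49 (adjusted p = 0.0602) without this replicate 1. The lower genes at 72 h were the extracellular superoxide dismutase *Sod3* at -1.99 (SE 0.32, adjusted p = 0.000498) and the peroxiredoxin *Prdx5* at -0.81 (adjusted p = 0.00955), together with *Prdx6* (-0.78), *Glrx* (-0.50) and the catalase gene *Cat*, the last 3 named after their values were seen. The calls of *Sod3* and *Prdx6* held in all 6 fits that left out 1 library, and those of *Prdx5*, *Cat* and *Glrx* in 4, 2 and 1. None of the 91 had a call in the interaction of TNF and time. Before adjustment 10 of the 91 were under 0.05, as were 2018 of all 20067 genes tested.

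**Figure D4:**
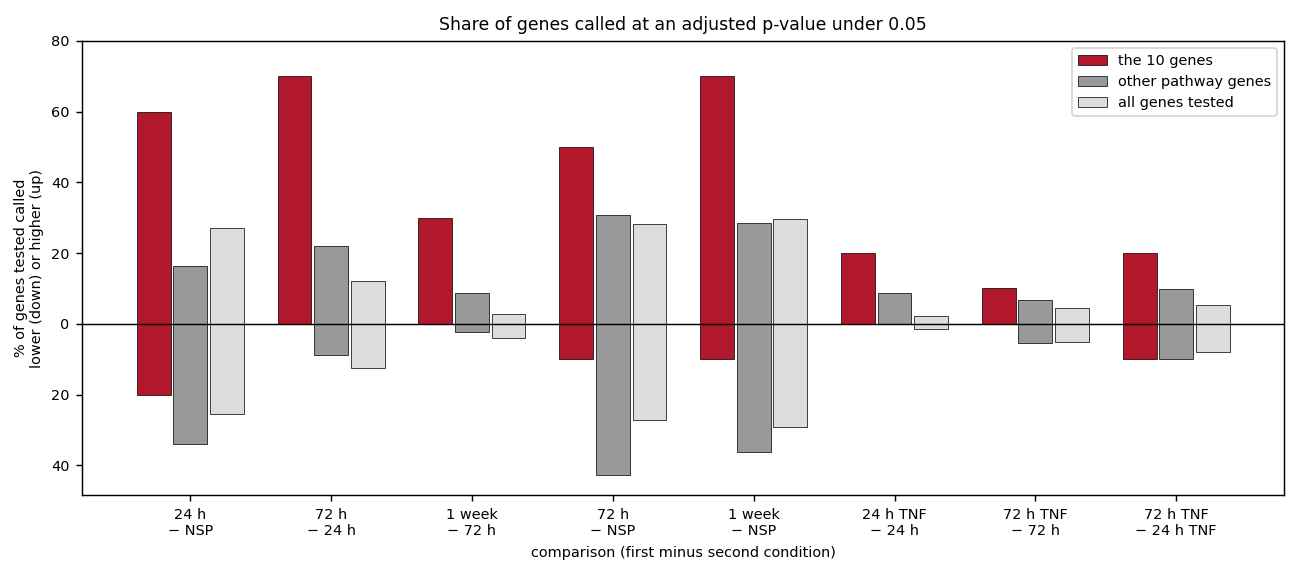
Percent of tested genes called higher (upward bars) and lower (downward bars) in each comparison, for the 10 genes, the 91 other pathway genes and all 20067 genes tested. From 24 h to 72 h 7 of the 10 genes were called higher and none lower, against 12.2% and 12.6% of all genes.

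The genes whose log2 CPM followed each of the 10 most closely over the 18 libraries, out of 16451 genes with a mean of at least 1 CPM, are given as a description, since all points share the same libraries and conditions. *Hmox1* was closest to *Rab7b* (Pearson's r = 0.965) and *1700007K13Rik* (0.95), *Gclc* to *1700007K13Rik* (0.96) and *Bcl2* (0.959), and *Gclm* to *Rab7b* (0.937) and *Ppm1b* (0.915). *Nfe2l2* was closest to *Sdc4* (0.973) and *C1s1* (0.967), *Keap1* to *Spr* (0.934) and *Fbxl14* (0.932), and *Txnrd1* to *Snhg17* (0.962) and *Rps6ka1* (0.961). *Nqo1* was closest to *Mxra7* (0.93) and *Tmem117* (0.927), *Srxn1* to *Rhod* (0.915) and *Gclm* (0.903), *Gstm1* to *Sult1a1* (0.903) and *Slc9a7* (0.896), and *Gsta4*, at its few counts, to *Gnpda2* (0.903) and *Sirt5* (0.9). Among the 10 themselves, *Gclc* with *Hmox1* (0.936), *Gclc* with *Gclm* (0.907) and *Gclm* with *Srxn1* (0.903) were closest. *Nqo1* with *Gsta4* (-0.275) and *Nqo1* with *Txnrd1* (-0.21) were farthest apart, and *Nfe2l2* with *Keap1* was at 0.001.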

How the data were processed

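Total RNA was depleted of ribosomal RNA and sequenced as stranded paired-end libraries from 18 cultures. The authors trimmed the reads with Trim Galore, aligned them with STAR and counted them per gene with featureCounts, and they deposited raw counts without normalization. The submitters' processing notes name mm10. Tool versions, the annotation release, the strand mode and how multi-mapping reads were counted are not given in the sources used here, and RNA quality is given only as a range. Groups were taken from the labels. The 10 genes and the lists were chosen with earlier results of these data known.

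Identifiers were matched to GENCODE M21 on GRCm38 (54809 of 54838). Counts were normalized with TMM and tested with edgeR 4.0.16 (limma 3.58.1, R 4.3.3) by glmQLFit and glmQLFTest over all 18 libraries, one mean per condition, after filterByExpr, which left 20067 genes in 9 comparisons. The threshold was a Benjamini-Hochberg adjusted p of 0.05, and the SE was the size of the log2 fold change divided by the square root of F. The biological coefficient of variation was 0.18. Log2 CPM used a prior count of 2. RPKM used the summed exon length. No pair of replicates was close enough to be one library deposited again (chi-square divided by its degrees of freedom, 3.71 to 55.4). Depth covers counting error only, since the reads carry no molecular identifiers. The scripts were tested on simulated counts with 200 changed genes between 24 h with TNF and 24 h. There edgeR called 56 of 100 changes of 2-fold and 84 of 100 changes of 4-fold, with 5 false calls. A gene without a call is therefore not shown to be unchanged. Figures used Python 3.11.15 with pandas 2.3.3 and matplotlib 3.10.9.

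All 10 genes were named. From the other pathway genes, the rule named the 2 called genes with the largest log2 fold change in each direction, with a mean of at least 1 CPM, in both TNF comparisons and from NSPs to 24 h, and the 2 genes most correlated with each of the 10. Alternatives were DESeq2 1.42.0, RLE normalization, other filters, only the groups compared, an absolute log2 change of at least 1, the replicate number as a block, and leaving out each library.

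Replicate numbers come from the labels. They were taken to pair the cultures only between 24 h and 72 h with TNF, where the correlations of same-numbered libraries were 0.255 to 0.291 and the block changed none of the 3 calls. Between NSPs and 72 h the correlations were also positive but lower (0.053 to 0.219).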

Additional observations from a re-analysis of the deposited data

How the results depend on the processing

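Of the 90 values given by 10 genes in 9 comparisons, 38 were called. Under the alternatives that kept every library, these called values were recomputed 302 times, of which 288 kept direction and call, 14 lost the call and none changed sign. With 1 library left out, or replicate 1 of both TNF conditions, 190 of 234 kept the call and 44 lost it. The cause of these changes was not tested.

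A log2 change of at least 1 left 1 gene from NSPs to 24 h, 2 from 24 h to 72 h, 2 from NSPs to 72 h, 5 from NSPs to 1 week, 1 with TNF at 24 h, 0 with TNF at 72 h and 1 from 24 h to 72 h of TNF. No filter on low counts gave 6 genes from 72 h to 1 week, 2 with TNF at 72 h and 2 in the interaction, in a fit whose spread came from the trend over all genes and not from each gene. Fitting only the groups compared left 1 from 24 h to 72 h of TNF, and DESeq2 gave 1 in the interaction. Leaving out 1 library moved the counts between 4 and 9 from NSPs to 24 h (lowest without NSP replicate 2 or 3), 4 and 7 from 24 h to 72 h (lowest without 72 h replicate 3), 0 and 2 with TNF at 24 h, 1 and 3 from 24 h to 72 h of TNF (lowest without replicate 2 or 3 at 24 h or replicate 3 at 72 h), and 0 and 1 in the interaction. With replicate 1 of both TNF conditions left out as well, the range with TNF at 72 h was 1 to 2.

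The replicate number as a block left 8 calls from NSPs to 24 h, 6 from 24 h to 72 h (without *Gsta4*, adjusted p = 0.0661 in edgeR's test), 2 from 72 h to 1 week (without *Gclc*, adjusted p = 0.0544), 6 from NSPs to 72 h, 8 from NSPs to 1 week, 2 with TNF at 24 h and 1 at 72 h, and it changed no other call. Between NSPs and 72 h the 3 correlations of same-numbered libraries were positive but low (0.053 to 0.219, with 4 of 6 libraries closest to their own number). In the other comparisons outside the TNF-treated pair at least 1 was negative (lowest from -0.416 to -0.069, and between 1 and 3 of 6 libraries closest). Outside that pair the numbers were therefore not taken to pair the cultures. The third 72 h column carries another number in the table, and a block with this library unpaired gave 3 calls from 24 h to 72 h.

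No value that changed sign was called in the reported fit. With that library unpaired, *Srxn1* was at -0.084 from 24 h to 72 h, *Nfe2l2* at 0.016 from 72 h to 1 week, and in the interaction *Gclm* was at 0.085, *Srxn1* at 0.035 and *Txnrd1* at 0.043. With at least 5 counts in total or 10 in every library, *Gstm1* with TNF at 24 h was at -0.007 and -0.003. For *Nqo1* with TNF at 72 h, RLE gave -0.002 and DESeq2 -0.006. From 24 h to 72 h of TNF, *Srxn1* was at 0.006 without a filter, 0.007 with 5 counts and 0.026 with 10. In the interaction, *Gclm* was at 0.01, 0.016 and 0.05 under the same filters and 0.007 with only the groups compared, and *Txnrd1* at 0.006 with 10 counts.

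When libraries were left out, the ranges that crossed 0 were, from NSPs to 24 h, *Gsta4* from -1.007 to 0.007, and from 24 h to 72 h, *Srxn1* from -0.102 to 0.247. From NSPs to 1 week, *Keap1* ranged from -0.07 to 0.154 and *Gsta4* from -1.282 to 0.128. With TNF at 24 h, *Keap1* ranged from -0.02 to 0.151 and *Gstm1* from -0.089 to 0.071. With TNF at 72 h, *Gclc* ranged from -0.015 to 0.254, *Gclm* from -0.029 to 0.252, *Nqo1* from -0.166 to 0.302, *Hmox1* from -0.635 to 0.073 and *Gsta4* from -0.47 to 0.082. From 24 h to 72 h of TNF, *Gclm* ranged from -0.023 to 0.235, *Hmox1* from -0.172 to 0.556, *Srxn1* from -0.284 to 0.13 and *Gsta4* from -0.192 to 1.554. In the interaction, *Gclm* ranged from -0.175 to 0.096, *Srxn1* from -0.426 to 0.079 and *Txnrd1* from -0.16 to 0.042.

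Depth limits *Gsta4*, at 1 to 21 counts per library, and 3 cultures per condition limit every test.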
